A study of Mus musculus with 4 samples.

Results

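The genes described are 10 genes of glycolysis and glycogen breakdown, followed across all miRNAs in chimeric Ago2 eCLIP of mouse plantaris muscle. They are Pygm, Pfkm, Aldoa, Tpi1, Gapdh, Pgk1, Pgam2, Eno3, Pkm and Ldha. Every peak that overlapped the RefSeq span of one of them on its own strand was kept, whichever miRNA it carried. A peak holds 1 or more miRNAs, and 1 miRNA in 1 peak is called an entry here. This gave 979 entries of 93468 in the MOV control library and 950 of 100897 in the MOV mimic library, on 10 of the 7812 genes with an entry in either library.

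Both libraries came from plantaris muscle of male C57BL/6J mice at 5 months of age, after 10 days of mechanical overload (MOV), which is surgical removal of part of the synergist muscles on both sides. MOV_Control had received a scrambled control lentivirus in the left plantaris and MOV_Mimic a miR-1 mimic lentivirus in the right, both with a mouse CMV promoter and a Turbo-GFP reporter. A sham-operated muscle was not part of this assay, so overload itself was shared by all libraries. Each group had 1 library (n = 1), and the input libraries, INPUT_Control and INPUT_Mimic, were not analysed here. Whether the control and mimic muscles came from the same animals was not given in the sources used here. There was no replicate and no test between groups. Intervals in this text are 95% intervals that cover counting error only, and each ratio compares these libraries.

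Skeletal muscle stores glucose as glycogen. Glycogen phosphorylase splits off its glucose units as glucose 1-phosphate, which enters glycolysis, and the glycolytic enzymes turn it into pyruvate and ATP. When the demand for ATP is high, lactate dehydrogenase converts pyruvate to lactate and restores the NAD+ that glycolysis needs, and fast fibres, which make up most of the plantaris, rely on this route. miRNAs are short RNAs that guide Argonaute proteins such as Ago2 to mRNAs, mainly by pairing of the seed (bases 2 to 8) with the target, and usually lower the stability or translation of that mRNA. In chimeric eCLIP the miRNA is ligated to the RNA that Ago2 holds, so that a chimeric read names the miRNA and its target together. miR-1, miR-206 and miR-133 are muscle-enriched miRNAs, and miR-1 and miR-206 share a seed.

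The miRNAs that led the reads on these genes are shown first, because the genes differed mainly in which of them they carried. Mature sequences are from RefSeq on GRCm38.p6 and were found for 543 of the 659 miRNA names in the files. They are written 5′ to 3′ with the seed in capitals. miR-206-3p stands for the family of miR-1a-3p and miR-206-3p, miR-133b-3p for that of miR-133a-3p and miR-133b-3p, and miR-378c for that of miR-378a-3p.
miR-206-3p (chr1:20679055-20679076, plus strand): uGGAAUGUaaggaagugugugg
miR-133b-3p (chr1:20682834-20682855, plus strand): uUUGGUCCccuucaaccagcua
miR-378c (chr14:46954905-46954925, minus strand): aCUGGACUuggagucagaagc
miR-29a-3p (chr6:31062673-31062694, minus strand): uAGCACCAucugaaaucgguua
miR-29b-3p (chr1:195037091-195037113, plus strand): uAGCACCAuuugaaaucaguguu
miR-29c-3p (chr1:195037600-195037621, plus strand): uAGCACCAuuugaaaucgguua
miR-26a-5p (chr9:119031811-119031832, plus strand): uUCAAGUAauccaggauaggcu
miR-16-5p (chr3:69009918-69009939, plus strand): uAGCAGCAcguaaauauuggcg
miR-15a-5p (chr14:61632075-61632096, minus strand): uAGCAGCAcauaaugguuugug
miR-497a-5p (chr11:70234730-70234751, plus strand): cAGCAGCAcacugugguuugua
The 3 miR-29 sequences share 1 seed, and miR-16-5p, miR-15a-5p and miR-497a-5p share another, so members of a family are summed below where a family is named.

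The complement of each seed was then sought on the sense strand of 1 coding transcript per gene, the one with the longest coding sequence in GENCODE M1. The longer match pairs with bases 2 to 8 of the miRNA and holds the shorter one, which pairs with bases 2 to 7. The transcripts belong to another genome build than the peaks, so a match is not placed in a peak. It is a description of letters and not a site of binding. The windows shown are those of the families with the most reads on Ldha, Pgam2 and Tpi1, and 3 of those found on Aldoa, each at most 30 bases long with the match in capitals and its position in the transcript.
Ldha, coding, CATTCC of miR-1/miR-206 at 642 to 647: cttcaagttcatCATTCCcaacattgtcaa
Pgam2, coding, GGACCAA of miR-133 at 267 to 273: ctggatgttacGGACCAAatgtgggtgccc
Pgam2, coding, GGTGCT of miR-29 at 219 to 224: ctgctacacgtcGGTGCTgaagcgggcaat
Tpi1, coding, GACCAA of miR-133 at 384 to 389: ctgctacaaagtGACCAAtggggccttcac
Aldoa, coding, GTCCAG of miR-378 at 133 to 138: caggccagatggGTCCAGcttcaacatgac
Aldoa, coding, ACTTGA of miR-26 at 864 to 869: atggggaccatgACTTGAagcgctgccagt
Aldoa, 3′ UTR, TGCTGCT of miR-15/miR-16 at 1462 to 1468: cccatcactctTGCTGCTgccctcgtgtgc
Among 11797 transcripts of 840 to 2880 nt, the length range of these genes, ACATTCC was in 11.5% and CATTCC in 35.6%. GGACCAA was in 12.6% and GACCAA in 37.6%. GGTGCT was in 44.4%, GTCCAG in 43.4%, ACTTGA in 31.4% and TGCTGCT in 33.8%.

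The 10 genes together held 3800 chimeric reads in MOV control library (interval 3680 to 3923) and 3763 in MOV mimic library (3644 to 3885). This was 1.64% (1.58 to 1.69) of all chimeric reads in MOV control and 1.45% (1.41 to 1.5) in MOV mimic. The ratio of mimic to control over the genes was 0.990 (0.946 to 1.04), below the ratio of 1.12 (1.11 to 1.12) between the library totals, 232408 reads in MOV control and 259207 in MOV mimic. Reads are given as deposited, not divided by library totals, unless a sentence says otherwise, so a gene that kept its share of the library has a ratio of 1.12. In bulk muscle, fewer cells of a type and less RNA per cell cannot be told apart, and a change in Ago2 binding cannot be told apart from a change in the mRNA here.

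By reads per kb of transcript, a scale that allows for length, Aldoa and Pgam2 led in both libraries. Aldoa had 571 reads per kb in MOV control and 521 in MOV mimic, and Pgam2 had 564 and 795. Eno3 followed with 367 and 292, Ldha with 288 and 282, Tpi1 with 219 and 215 and Pygm with 202 and 212. Pfkm had 87.1 and 85.9 reads per kb, and Pkm 78.4 and 57.3. Within MOV control library the counting intervals of Aldoa and Pgam2 overlapped, as did those of Tpi1 and Pygm and those of Pfkm and Pkm. Pgk1 had 1.41 and 1.34 reads per kb, and Gapdh 0 and 0.362. By summed reads, 7 of the 10 ranked between 20 (Aldoa) and 77 (Pfkm) among the 7812 genes, and Pkm ranked 129. Markers of the muscle fibre were present with 12 of 12 genes and held 17.6% of reads in MOV control and 20.6% in MOV mimic.

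**Figure D1:**
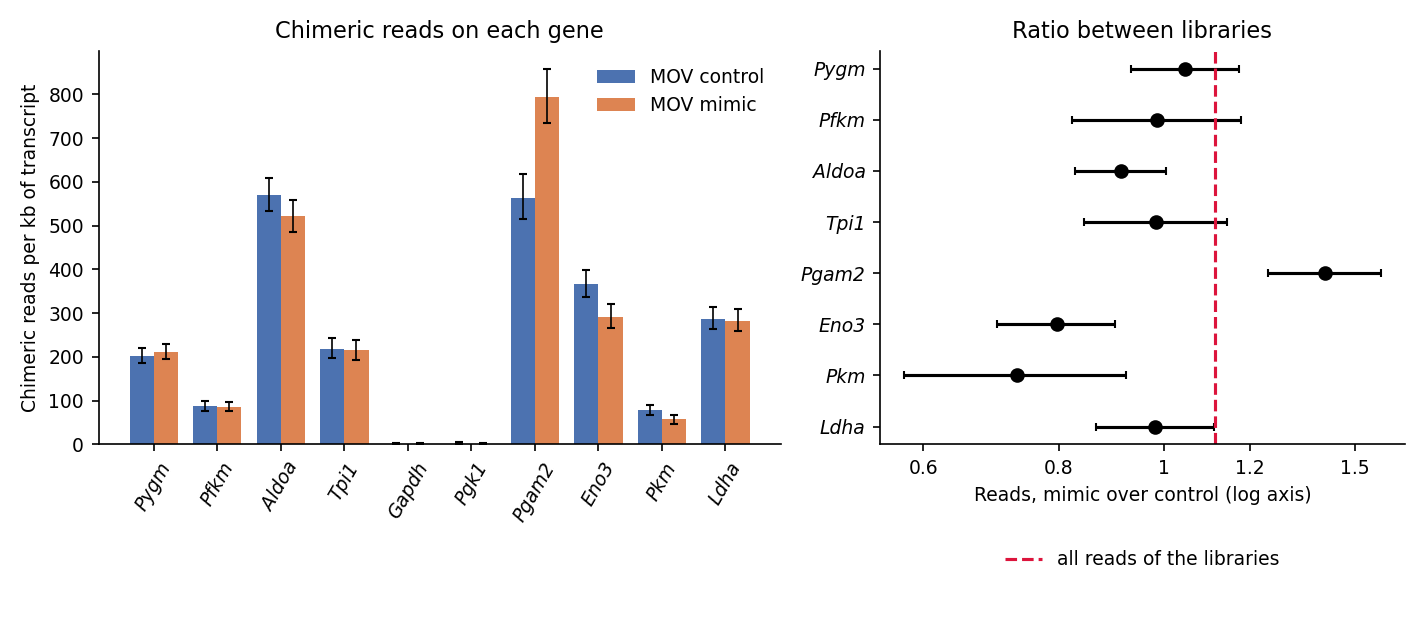
Left, chimeric reads per kb of transcript on each gene in the MOV control and MOV mimic libraries, 1 library each, with 95% Poisson counting intervals as bars. Right, the ratio of reads, mimic over control, on a log axis with 95% counting intervals for the 8 genes with over 20 reads, beside the ratio of all reads (dashed, 1.12). Pgam2 lies to the right of the dashed line at 1.41 and the other 7 genes to its left, where the whole intervals of Ldha, Aldoa, Eno3 and Pkm lie left of it.

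Of the 8 genes with a mean of at least 20 reads, 0 were at least 1.5-fold higher in MOV mimic after division by library totals and 1, Pkm, was at least 1.5-fold lower. Among all 1454 genes with such a mean, 8.05% were higher and 11% were lower. The median log2 ratio per library total was −0.18 over the 8 genes and −0.08 over all 1454. With smaller shifts, the counting interval lay above the library ratio of 1.12 for Pgam2, below it for Ldha, Aldoa, Eno3 and Pkm, and included it for Pygm, Pfkm and Tpi1.

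miR-133 carried the largest share of reads on these genes. miR-133a-3p and miR-133b-3p together made up 48.1% (46.5 to 49.7) in MOV control and 48.7% (47.1 to 50.3) in MOV mimic, against 23.6% and 25.1% of the whole libraries. Without Pgam2 the shares were 44.3% and 41.6%. miR-133a-3p was the leading miRNA in 6 of the 8 genes, reads of both libraries pooled, against 32.6% of all 1454 genes, and miR-1a-3p led in 1 of 8, Ldha, against 19.2%. The miR-1/miR-206 family made up 13.6% in each library, against 18.4% and 19.4% of the whole libraries. miR-29 held 7.24% and 5.77% of the reads on these genes (library 2.41% and 2.46%), and miR-378 held 7.04% and 8.76% (library 2.78% and 3.26%). miR-26 held 5.28% and 4.25%, against 3.54% and 3.60% of the libraries.

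**Figure D2:**
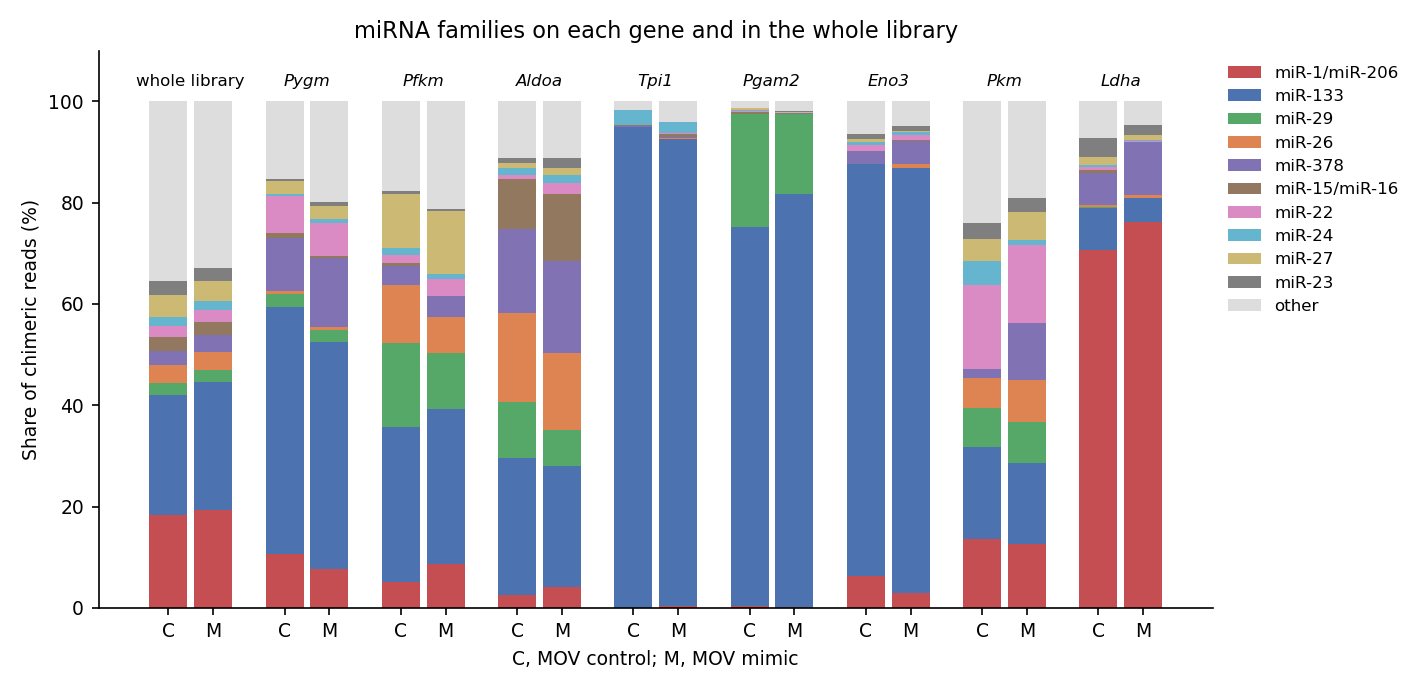
Share of chimeric reads (%) held by each miRNA family on the 8 genes with over 20 reads and in the whole library, control (C) beside mimic (M). Ldha is mostly miR-1/miR-206, Tpi1, Pgam2 and Eno3 are mostly miR-133, and Aldoa, Pfkm and Pkm hold several families in similar shares.

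Peaks of both libraries that touched or overlapped were joined into sites, because the libraries split the same stretch differently. The peaks of a site need not cover the same stretch in both libraries, so a site's ratio can compare unequal widths. The 10 genes had 58 sites, with a median width of 57.5 nt. Both libraries had reads in 41 of them, 9 were found in MOV control only, none above 16.5 reads, and 8 in MOV mimic only, none above 13.0. Of the 34 sites with at least 10 reads in both, 29 had the same leading family in both libraries. miR-133 led 13 of those in 6 genes, and miR-1/miR-206, miR-378 and miR-29 led 3 each. The counting interval of the site's ratio included the library ratio in 18 of the 34, lay above it in 4 and below it in 12.

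**Figure D3:**
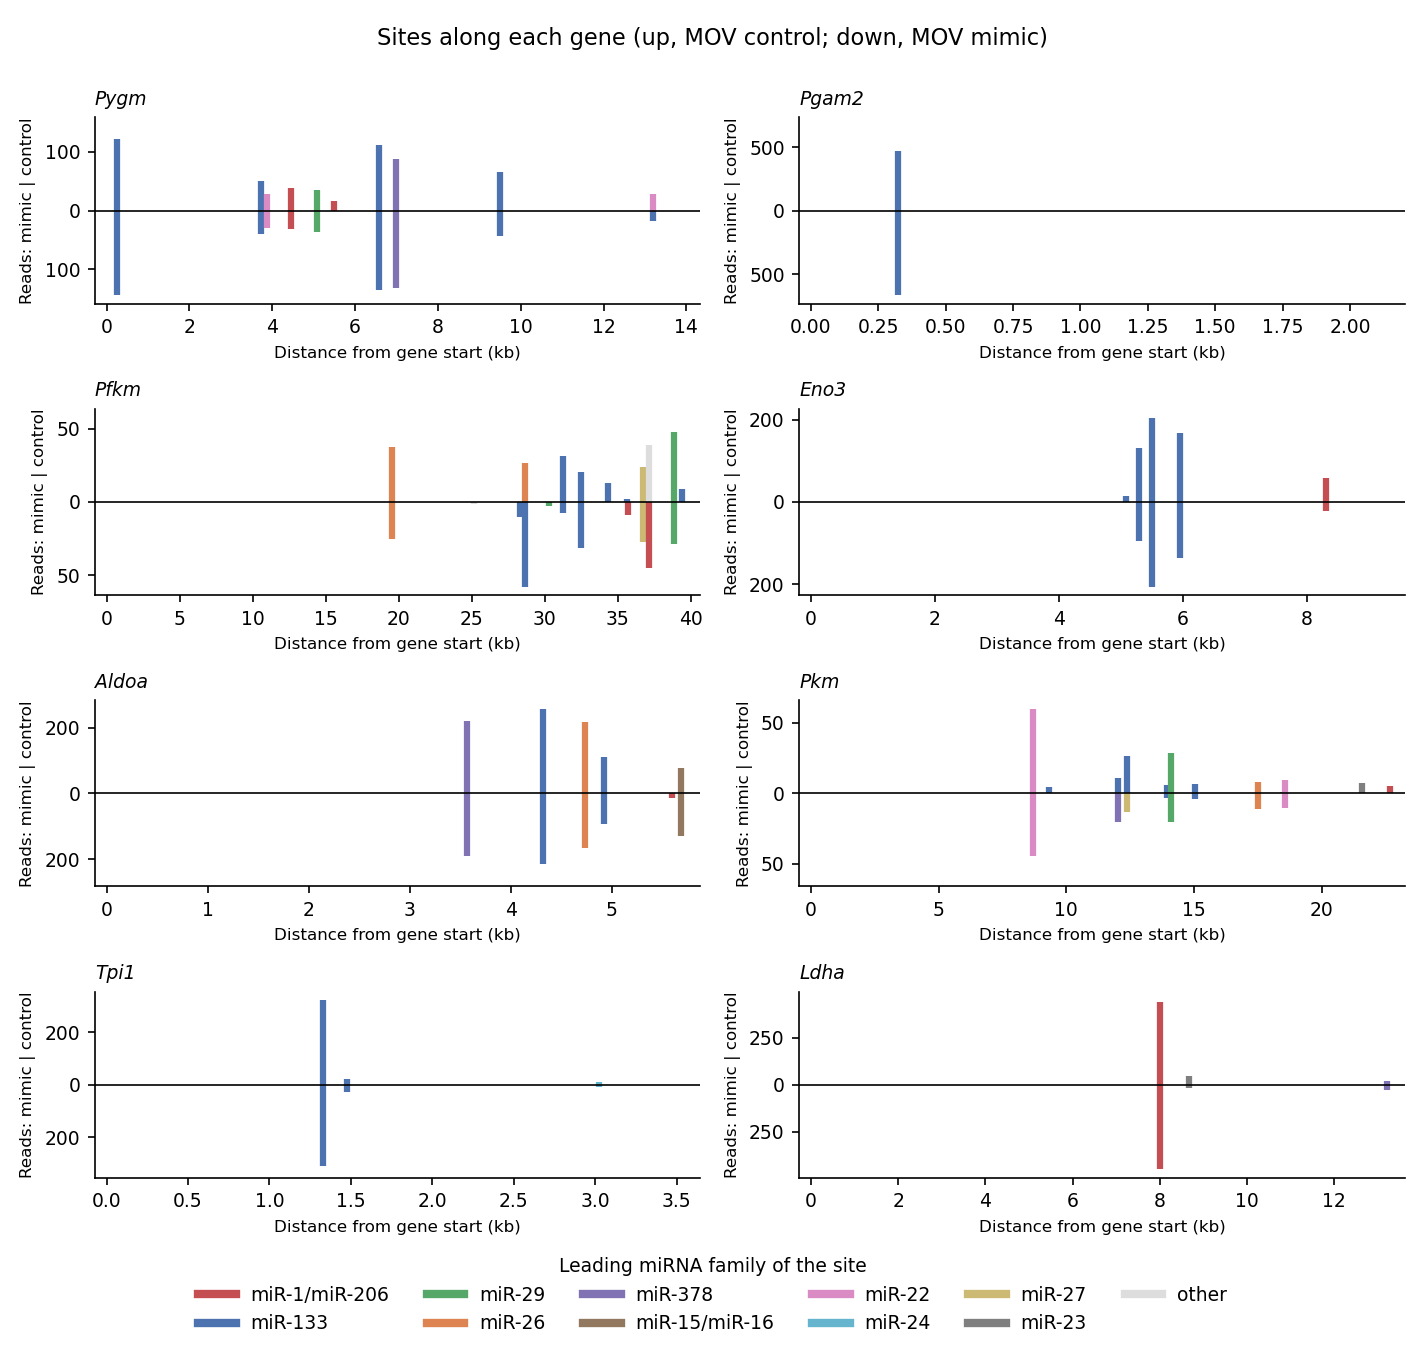
Reads of each site along the 8 genes, against distance from the gene start in kb, with the control upwards and the mimic downwards, coloured by the leading miRNA family in that library. Pgam2 has 1 site, Tpi1 and Ldha have 1 dominant site each, and Pygm, Pfkm and Pkm have 10 or more spread along the gene.

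Pygm, the muscle glycogen phosphorylase that releases glucose 1-phosphate from glycogen (chr19:6384408-6398464, plus strand), had 582 reads in MOV control and 609 in MOV mimic. Its ratio was 1.05 (0.932 to 1.17), and the interval included the library ratio. The reads were spread over 10 sites, and the highest held 20.9% of them in MOV control and 23.6% in MOV mimic. miR-133 led 4 of these sites in both libraries: the site nearest the gene start (chr19:6384612-6384719) with 122 and 144 reads, and those at chr19:6388081-6388173 with 50.6 and 40.5, chr19:6390944-6391041 with 111 and 134, and chr19:6393878-6393926 with 65.9 and 42.7. Next to the site at chr19:6390944-6391041 lay a miR-378 site (chr19:6391339-6391471) with 87.9 reads in MOV control and 132 in MOV mimic, a ratio of 1.51 (1.14 to 1.99), which was above the library ratio. The peaks of this miR-378 site covered that stretch in MOV mimic and only chr19:6391339-6391436 in MOV control. Within the site miR-378a-3p went from 28.99 to 41.6 reads and miR-22-3p from 2.61 to 12.6. miR-22-3p led another site (chr19:6388267-6388309) with 15.3 and 13.8 reads. It also led the last site (chr19:6397578-6397642) in MOV control with 16.6 reads, where it had 3.25 in MOV mimic. A miR-1/miR-206 site (chr19:6388835-6388879) held 17.8 reads of miR-1a-3p in MOV control and 15.1 in MOV mimic, and a second, of 16.5 reads (chr19:6389897-6389921), was found in MOV control only.

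Pfkm, the muscle phosphofructokinase that catalyses the committed step of glycolysis (chr15:98092589-98132447, plus strand), had 251 and 247 reads, a ratio of 0.986 (0.822 to 1.18). No site dominated, and the highest held 19.1% of its reads in MOV control and 23.4% in MOV mimic. The highest site of the control (chr15:98131443-98131501) was led by miR-29 and held 47.8 reads there and 28.9 in MOV mimic. The highest of the mimic (chr15:98121215-98121326) held 26.6 reads in MOV control and 57.9 in MOV mimic, a ratio of 2.18 (1.34 to 3.53). The peak there covered chr15:98121215-98121288 in MOV control and chr15:98121221-98121326 in MOV mimic. There the leading family was miR-26 in MOV control and miR-133 in MOV mimic, with miR-133a-3p at 3.82 and 14.7 reads. One miR-133 site (chr15:98125023-98125066) had 20.3 and 31.3 reads, a ratio of 1.54 (0.856 to 2.87). Another (chr15:98123825-98123921) had 31.2 and 7.72, a ratio of 0.247 (0.102 to 0.574), and the intervals of these neighbouring sites did not overlap. The latter site was 2 peaks in MOV control and 1 in MOV mimic, which covered only chr15:98123867-98123921. In the overlapping pair of peaks at that end, miR-133a-3p had 6.47 reads in MOV control and 6.61 in MOV mimic. A miR-26 site (chr15:98112122-98112172) held 20.8 and 8.06 reads of that family. There miR-26a-5p had 17.6 reads in MOV control and 3.83 in MOV mimic, where miR-26b-5p led with 4.23. miR-27 led a site (chr15:98129267-98129328) with 24.0 and 27.4 reads, and miR-27b-3p was its main miRNA in both.

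Aldoa, the aldolase that splits fructose 1,6-bisphosphate (chr7:126795234-126800994, minus strand), had the most reads, 884 in MOV control and 807 in MOV mimic, a ratio of 0.913 (0.829 to 1.005). It had 5 sites with reads in both libraries, and 4 families led them. In transcript order, the first site (chr7:126797363-126797496) was led by miR-378, with 220 reads in MOV control and 191 in MOV mimic. The next (chr7:126796617-126796726) held 257 and 216 reads, of which miR-133 had 132 and 124. miR-29 had 97.8 reads there in MOV control and 54.6 in MOV mimic, a ratio of 0.559 (0.396 to 0.789). The miR-26 site (chr7:126796217-126796295) held 217 and 165 reads, and a miR-133 site (chr7:126796024-126796124) 111 and 93.1. The ratio interval lay below the library ratio at each of these 4 sites, by little at the last, where the ratio was 0.835 (0.629 to 1.114) against 1.115. The site nearest the gene's end (chr7:126795254-126795369) went the other way, with 78.0 reads in MOV control and 130 in MOV mimic, a ratio of 1.67 (1.25 to 2.24). Its peak covered that stretch in MOV mimic and only chr7:126795272-126795345 in MOV control. The site was led by miR-15/miR-16, with 61.6 and 91.3 reads. miR-16-5p had 26.6 and 30.1 reads there, miR-497a-5p 13.9 and 20.1, and miR-15a-5p 8.27 and 20.1.

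Tpi1, the triosephosphate isomerase that interconverts the 2 triose phosphates (chr6:124810586-124814158, minus strand), had 352 and 346 reads, a ratio of 0.984 (0.845 to 1.14). Of these, 91.5% in MOV control and 89.2% in MOV mimic lay in 1 site (chr6:124812789-124812869), with 322 and 308 reads. miR-133 made up 97.7% of the site in MOV control and 94.1% in MOV mimic. A second miR-133 site lay nearby (chr6:124812666-124812705), with 20.7 and 28.1 reads. The third site (chr6:124811114-124811153) had 9.23 and 9.26 reads and was led by miR-24-3p in both libraries.

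Gapdh and Pgk1 had almost no reads. Gapdh, the glyceraldehyde-3-phosphate dehydrogenase that makes NADH and 1,3-bisphosphoglycerate (chr6:125161852-125166467, minus strand), had no peak in MOV control and 0.514 reads in MOV mimic, over 2 peaks. Pgk1, the phosphoglycerate kinase that makes the first ATP of the pathway (chrX:106187100-106203699, plus strand), had 2.57 and 2.44 reads in 1 site. Copies of their transcripts elsewhere in the mm9 genome were counted, since reads that fit several places can be lost or shared in processing. Stretches of at least 200 nt at 95% identity or more were found at 47 places outside the gene for Gapdh, 4 for Pgk1, 2 for Ldha, 1 for Tpi1 and 0 for the other 6 genes. At 90% identity the numbers were 138 for Gapdh, 14 for Ldha, 5 each for Aldoa and Pkm, 4 for Pgk1 and 2 for Tpi1. The part of such copies in the low reads of Gapdh and Pgk1 was not tested, and values of these genes are uncertain for that reason.

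Pgam2, the muscle phosphoglycerate mutase (chr11:5801637-5803796, minus strand), had the highest ratio of mimic to control among the 8 genes with over 20 reads. It had 474 reads in MOV control (432 to 519) and 667 in MOV mimic (617 to 720), and these intervals did not overlap. The ratio was 1.41 (1.25 to 1.59), or 1.26 after division by library totals. All reads lay in 1 site 250 nt from the gene start (chr11:5803403-5803546), the highest site of all 58 in each library. Most of these reads belonged to 2 families. miR-133 held 354 reads in MOV control and 545 in MOV mimic, a ratio of 1.54 (1.34 to 1.76). miR-133a-3p went from 273 to 408 reads and miR-133b-3p from 81.1 to 137. miR-29, in the same site, held 106 reads in each library, a ratio of 0.999 (0.757 to 1.32). Each of its 3 members had similar reads in both libraries, with 38.1 and 41.1 reads of miR-29a-3p, 43.2 and 40.4 of miR-29b-3p and 24.4 and 24.1 of miR-29c-3p. The Pgam2 transcript shown above holds the longer match to miR-133, the only one among the 10 genes. miR-1a-3p had 2 reads on Pgam2 in MOV control and 0 in MOV mimic.

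Eno3, the muscle enolase (chr11:70653125-70662513, plus strand), had fewer reads in MOV mimic, 574 in MOV control (528 to 623) and 457 in MOV mimic (416 to 501). The intervals did not overlap, and the ratio was 0.797 (0.703 to 0.902). Its main reads lay in 3 miR-133 sites within 1 stretch of the gene. These held 132 and 94.9 reads (chr11:70658388-70658438), 203 and 205 reads (chr11:70658597-70658667) and 167 and 135 reads (chr11:70659027-70659112). The middle site thus had about the same reads in both libraries, and the outer ones had fewer in MOV mimic. The miR-1/miR-206 site further along (chr11:70661421-70661456) held 57.9 and 21.5 reads, a ratio of 0.372 (0.221 to 0.629). Its peak covered that stretch in MOV control and only chr11:70661432-70661446 in MOV mimic. In it miR-1a-3p had 17.1 reads in MOV control and 7.66 in MOV mimic, and miR-206-3p had 16.9 and 4.61. The transcript of Eno3 held no match to miR-133 of either length, and 1 shorter match to miR-1/miR-206.

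Pkm, the pyruvate kinase that makes pyruvate and ATP (chr9:59656576-59679372, plus strand), had 174 and 127 reads, a ratio of 0.732 (0.576 to 0.923). It was the gene that passed the 1.5-fold rule, at 0.656 after division by library totals, and it did so neither at 2-fold nor without that division. It had 13 sites, of which 4 held at least 10 reads in both libraries. The highest (chr9:59665205-59665360) held 59.9 reads in MOV control and 44.2 in MOV mimic and was led by miR-22-3p, with 20.9 and 13.0 reads. A miR-29 site (chr9:59670603-59670722) held 28.5 and 20.2 reads. The leading miRNA of the whole gene was miR-133a-3p in MOV control, with 29.9 reads, and miR-22-3p in MOV mimic, with 19.7. miR-206-3p went from 13.8 to 5.0 reads on Pkm, while miR-1a-3p had 9.88 and 11.1.

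Ldha, the lactate dehydrogenase subunit typical of glycolytic muscle (chr7:46842274-46855627, plus strand), stood apart from the other genes in its miRNAs. It had 508 and 499 reads, a ratio of 0.982 (0.866 to 1.11), and the upper limit lay just under the library ratio. Of its reads, 86.9% in MOV control and 90.7% in MOV mimic lay in 1 site (chr7:46850191-46850348), with 441 and 452 reads. miR-1/miR-206 made up 79.4% of that site in MOV control and 84.0% in MOV mimic. miR-1a-3p had 295 reads there in MOV control and 336 in MOV mimic, a ratio of 1.14 (0.971 to 1.34), whose interval included the library ratio. miR-206-3p had 55.5 and 43.9 reads, and miR-133a-3p 32.6 and 15.5. A second site (chr7:46850886-46851009) went from 48.2 to 16.2 reads, a ratio of 0.335 (0.177 to 0.597), and was led by the miR-23 family, with 17.9 and 7.69 reads. Its leading member was miR-23a-3p in MOV control, with 14.8 reads, and miR-23b-3p in MOV mimic, with 6.16. The site was 1 peak in MOV control (chr7:46850893-46851009) and 2 narrower peaks in MOV mimic (chr7:46850886-46850909 and chr7:46850928-46850965). The site near the gene's end (chr7:46855442-46855527) was led by miR-378, with 18.4 and 30.4 reads. The Ldha transcript holds the shorter match to miR-1/miR-206 shown above and not the longer one.

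The mimic supplies miR-1, so the comparison asks whether miR-1a-3p was found more often on these genes in that library. In the whole libraries miR-1a-3p held 11.8% of reads in MOV control and 13.8% in MOV mimic, and the ratio of its reads was 1.31. That ratio was not particular to miR-1a-3p. In the whole libraries miR-378a-3p, which the mimic does not supply, also had 1.31, miR-133a-3p had 1.22 and miR-206-3p 0.947. On the 10 genes miR-1a-3p had 400 reads in MOV control and 431 in MOV mimic, a ratio of 1.08 (0.938 to 1.24), whose interval lay below 1.31. Ldha alone held 75.7% of these reads in MOV control and 78.1% in MOV mimic. In the order of MOV control, Pygm came next with 43.6 and 32.6 reads, then Eno3 with 17.4 and 7.86, Aldoa with 14.6 and 23.1, Pkm with 9.88 and 11.1 and Pfkm with 9.60 and 18.0. Tpi1, Pgam2, Gapdh and Pgk1 had 2 reads or fewer in each library. Of the 6 genes with a mean of at least 10 miR-1a-3p reads, 1, Pfkm, was at least 1.5-fold higher in MOV mimic per library total, and 1, Eno3, was at least 1.5-fold lower. Among all 284 genes with such a mean, 24.3% were higher and 10.2% lower. Before that division, the ratio of miR-1a-3p reads was 1.88 (0.788 to 4.36) on Pfkm and 0.452 (0.176 to 1.15) on Eno3. Both intervals included the library ratio. A part of the miR-1a-3p reads on Pfkm in MOV mimic lay in a site found in that library only. Most of those on Eno3 lay in the miR-1/miR-206 site whose peak was narrower in MOV mimic. The median log2 ratio per library total was 0.00 over the 6 genes and 0.17 over the 284.

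The other leading miRNAs lay mostly on 1 or 2 of the genes each, apart from miR-133a-3p and, less so, miR-133b-3p. miR-133a-3p had 1500 reads in MOV control and 1486 in MOV mimic, a ratio of 0.991 (0.921 to 1.07) against 1.22 in the whole libraries. Eno3 held the most of it in MOV control and Pgam2 in MOV mimic. miR-133b-3p had 328 and 347 reads, a ratio of 1.06 in these genes and in the whole libraries alike. miR-378a-3p had 206 and 246 reads, a ratio of 1.19 (0.988 to 1.44) against 1.31 in the libraries. Of these reads, Aldoa held 59.7% and 48.0%. Aldoa also held 80.4% and 78.7% of miR-26a-5p, which had 172 and 131 reads, a ratio of 0.761 (0.602 to 0.962) against 1.13 in the libraries. miR-29a-3p went from 148 to 104 reads, a ratio of 0.708 (0.541 to 0.909) against 1.202, and Aldoa and Pgam2 held most of it. miR-206-3p went from 117 to 82.1 reads, a ratio of 0.70 (0.522 to 0.937) against 0.947. miR-22-3p had 92.8 and 91.8 reads, and Pygm held 45.3% and 43.2% of them.

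The split of a family between its named members differed between genes. The share of miR-133 reads named miR-133a-3p was 87.5% (84.0 to 90.2) in MOV control and 90.5% (87.3 to 93.3) in MOV mimic on Eno3, and 90.2% (85.9 to 93.8) and 84.9% (79.1 to 89.7) on Aldoa. On Tpi1 it was 72.4% (67.3 to 77.2) and 76.4% (71.4 to 81.0), and on Pgam2 77.1% (72.4 to 81.4) and 74.9% (71.0 to 78.5). The intervals of Eno3 lay above those of Tpi1 and Pgam2 in both libraries. The whole libraries had 78.0% and 80.4%. For miR-1/miR-206, the share named miR-1a-3p on Ldha was 84.5% (80.2 to 88.0) and 88.5% (84.8 to 91.5), above the 64.2% and 71.3% of the whole libraries. On Pygm it was 70.6% (58.1 to 81.8) and 69.8% (55.1 to 82.7). Eno3, with 48.7% (30.4 to 64.5), and Pkm, with 41.7% (22.1 to 63.4), were below the library share in MOV control, and the interval of Eno3 included it. In MOV mimic the family had few reads on these genes, and no share was taken. There miR-1a-3p had 7.86 of 13.0 reads on Eno3 and 11.1 of 16.1 on Pkm, so the low share of Pkm rests on MOV control. How a name was chosen between miRNAs of one family was not given in the sources used here.

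The genes whose transcript held the shorter match of a family were set beside the reads of that family, over the 8 genes with reads and both libraries pooled. CATTCC was in Ldha, Eno3, Pfkm and Pygm, which held 90.4% of the miR-1/miR-206 reads and 49.3% of all reads. Ldha alone held 359 of the 518 miR-1/miR-206 reads of the 10 genes in MOV control and 380 of 513 in MOV mimic. ACATTCC was in no transcript of the 10 genes. GTCCAG was in Ldha, Aldoa, Pfkm and Pygm, with 90.9% of the miR-378 reads and 58.0% of all reads. ACTTGA was in Aldoa, Pkm and Tpi1, with 83.1% of the miR-26 reads and 35.6% of all reads. Aldoa alone held 155 of the 201 miR-26 reads of the 10 genes in MOV control and 122 of 160 in MOV mimic. GACCAA was in Pgam2, Pfkm, Pygm and Tpi1, with 61.7% of the miR-133 reads and 46.7% of all reads, while Eno3 and Aldoa had neither length of match to it. The genes with a match held 97.4% of the miR-15/miR-16 reads against 75.7% of all reads, 79.3% against 61.8% for miR-22, and 86.2% against 82.4% for miR-27. Aldoa alone held 86.1 of the 100 miR-15/miR-16 reads of the 10 genes in MOV control and 107 of 113 in MOV mimic. For miR-24 the genes with a match held 56.2% against 46.8%, for miR-23 49.0% against 42.8%, and for miR-29 68.4% of both. Introns and other transcripts were not searched.

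Entries of the same miRNA were compared between libraries. Of the 979 control entries, 53.3% (50.1 to 56.5) were overlapped by an entry of the same miRNA in MOV mimic. There were 419 pairs in which each was the largest overlap of the other, and these had a median log2 ratio of 0.11 (0.00 to 0.23), mimic over control, with an SD of 1.97, against a median of 0.04 over 31113 such pairs of all genes. A pair sets single peaks side by side, so where a library split a site into more peaks, only a part of its reads enters. For example, miR-133a-3p on Tpi1 had 107 reads in MOV control and 196 in MOV mimic in its main pair. Over that whole site it had 228 and 222. The median and the counts of higher pairs hold with that limit. Most pairs held few reads. Of all entries on the genes, 591 of 979 in MOV control and 570 of 950 in MOV mimic were under 1 read, while 64 and 54 entries of at least 10 reads held 71.5% and 71.6% of the reads. In the 52 pairs with a mean of at least 10 reads the SD was 0.73, and 27 of them were higher in MOV mimic. Among these 52, the highest ratios were those of miR-15a-5p on Aldoa (log2 ratio 1.28), miR-133a-3p on Pfkm at chr15:98125025-98125066 (1.14) and miR-378a-3p on Ldha within its main site (10.8 to 20.6 reads, 0.93). The lowest were those of miR-26a-5p on Pfkm (−2.20), miR-206-3p on Eno3 (−1.88) and miR-1a-3p on Eno3 (−1.16). These 6 pairs were chosen by their change, so their values are a description. On Ldha the pair held 1 of the 2 control peaks of the main site, and over the whole site miR-378a-3p had 12.1 and 20.6 reads.

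**Figure D4:**
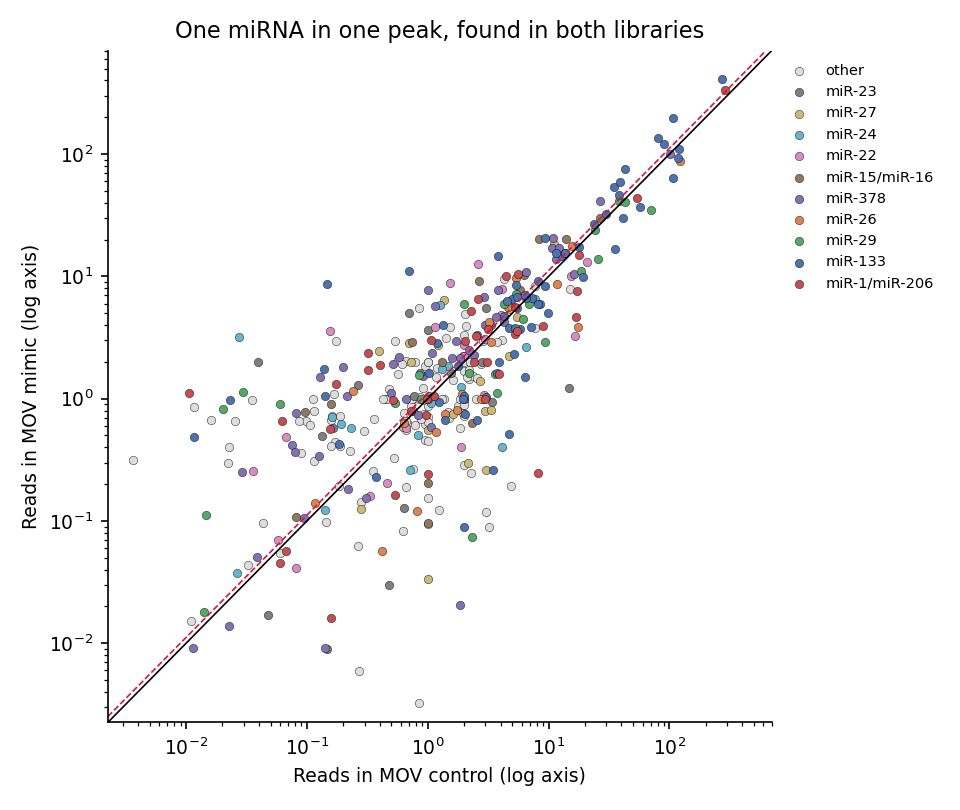
Each point is 1 miRNA in 1 peak of the 10 genes found in both libraries, 419 in all, with its reads in the MOV control (x) and MOV mimic (y) on log axes, coloured by miRNA family. The solid line marks equal reads and the dashed line the library ratio of 1.12. Points with a mean of at least 10 reads scatter less (SD of the log2 ratio 0.73) than all points (1.97), but some of them lie well off the lines. Points under 1 read scatter widely.

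The miRNA shares of the 10 genes together were most like those of Mybpc2 (a myosin-binding protein of fast fibres, cosine 0.985), Atp5b (a subunit of mitochondrial ATP synthase, 0.983) and Ttn (titin, 0.979), among 81 other genes with at least 200 reads in each library, whose median cosine was 0.674. Within the set, Tpi1 and Pgam2 were nearest to each other (0.984), Eno3 was nearest to Tpi1 (0.977) and Pygm to Eno3 (0.960). Pfkm was nearest to Pygm (0.867), Aldoa to Pfkm (0.823) and Pkm to Pygm (0.760). Ldha was the farthest from each of the others, and its nearest was Pkm at 0.366. The same gene in control and mimic had cosines of 0.904 (Pkm) to 0.998 (Eno3), and for each of the 8 genes this was above its cosine with the nearest other gene of the set.

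Of 41 further genes of glycolysis, glycogen and lactate transport, 24 had reads in both libraries, 6 in 1 library and 11 in neither. Of the 13 with a mean of at least 20 reads, 1 was at least 1.5-fold higher in MOV mimic per library total, the glycogen branching enzyme Gbe1 (22.1 and 39.4 reads), and 0 were at least 1.5-fold lower, against 8.05% higher and 11% lower of all 1454 genes. Their median log2 ratio per library total was −0.10, and −0.08 over all 1454. The highest was Pgm1, the phosphoglucomutase that links glucose 1-phosphate to glycolysis, with 194 and 193 reads, of which miR-1a-3p held 40.9% over both libraries. Ugp2, which makes UDP-glucose for glycogen synthesis, had 147 and 181 reads, and Gys1, the muscle glycogen synthase, had 90.1 and 108. Phka1, a subunit of the phosphorylase kinase that activates Pygm, had 106 and 129. Gpi1, the glucose-6-phosphate isomerase, had 71.6 and 68.9 reads, and Ppp1r3a, a glycogen-targeting subunit of protein phosphatase 1, had 56.5 and 58.8. Ugp2, Gys1, Phka1, Gpi1 and Ppp1r3a were led by miR-133a-3p. Glycogenin, Gyg, had 63.8 and 55.5 reads and was led by let-7i-5p. Markers of other cells held less of the library than those of the fibre: fibroblast markers 2.50% and 2.13%, satellite cell and new fibre markers 0.231% and 0.126% with Pax7 at 0, and immune markers 0.0391% and 0.0559% with Cd68 and Adgre1 at 0. Their part in the values above was not tested.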

How the data were processed

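Chimeric Ago2 eCLIP-seq was analysed for 1 library per group. According to the study's methods, the authors cut off adapters, took out repetitive elements, mapped reads with STAR, discarded PCR duplicates and called peaks with CLIPper. The methods also describe a miRNA-specific form of the assay, in which cDNA was amplified with a miR-1 primer. The peaks used here were not limited to miR-1. Each library named 560 miRNAs, and miR-133 held 23.6% and 25.1% of reads against 18.4% and 19.4% for miR-1/miR-206. Whether that primer was used for a part of them was not tested, and the miR-1 shares are uncertain to that extent. The submitters' processing notes list UMI-tools 1.1.1, cutadapt 3.2, STAR 2.7.7a, Bowtie 1.2.3 and HOMER 4.11. The deposited value of each entry was treated as an expected count of chimeric reads, not divided by depth, and was summed as deposited. Most values are not whole, and the rule behind the fractions was not given in the sources used here. The methods name mm9 and the processing notes mm10. Because 36 peaks of the control and 35 of the mimic lay beyond the mm9 chromosome ends, coordinates were read as GRCm38 (mm10), counted from 1.

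Entries were given to RefSeq GRCm38.p6 genes by an overlap of at least 1 nucleotide on the gene's strand. The strand was known for 35775 of 49997 genes. No entry lay on the opposite strand of the 10 genes or in another gene known to be on the same strand. Pkm overlapped 1 other gene on the same or an unknown strand, and genes of unknown strand were not counted in this. The genes, miRNA families, further pathway genes and markers were chosen with earlier results of these data known. Named were all 10 genes, the 8 further pathway genes and 8 miRNAs with the most reads, the muscle miRNAs, and the 3 shared entries with the highest and the 3 with the lowest ratio. One of those further pathway genes is not reported here. Gbe1 was named after its values were seen, and sites were joined after the peaks were seen.

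With 1 library per group no test was made. Intervals (95%) are exact Poisson for reads, Clopper-Pearson for shares, conditional binomial for ratios and order-statistic for medians, on reads rounded to whole numbers. The depth known here is the chimeric reads in each file. Likeness is the cosine of the shares of all miRNAs, reads of both libraries pooled. Transcript lengths and seed matches came from GENCODE M1, matched by gene name, and copies from BLAST 2.17.0 against mm9. Python 3.11.15, pandas 2.3.3 and SciPy 1.17.1 were used. Alternatives were minimum reads, gene assignment, library scaling, overlap, and leaving out a gene, the highest peak or the highest site. The inputs were not used here.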

Additional observations from a re-analysis of the deposited data

How the results depend on the processing

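No paired analysis was possible because the groups held 1 library each. Of the recomputed values of the 10 genes together and of the count of further pathway genes, 30 stayed within the counting interval (or 1.5 times, for counts) and 49 moved. The ratio of miR-1a-3p reads and the median log2 ratio of shared entries, whose intervals included 1 and 0, passed below 1 and 0 under some settings. For miR-1a-3p it was 0.965 divided by library totals, 0.991 with miR-206-3p added and 0.972 without Ldha. Of the recomputed ratios of single genes, 31 stayed and 1, that of Aldoa, moved to 0.819 when divided by library totals. Divided by library totals, the ratio was 0.888 for all reads and 0.899 for miR-133, and the median log2 ratio of shared entries was −0.047. Without the highest peak of each gene, the ratios were 0.812 for all reads, 0.848 for miR-1a-3p and 0.655 for miR-133. The control had its sites split into more peaks, so that setting takes less from it. Without the highest site of each gene, chosen after seeing the data, they were 0.892, 0.836 and 0.820. Without Pgam2, also chosen after seeing the data, the ratio was 0.931 for all reads and 0.874 for miR-133, and the miR-133 share was 44.3% in MOV control and 41.6% in MOV mimic.

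The share of library reads was 1.73% in MOV control and 1.53% in MOV mimic with entries of at least 1 read, 2.01% and 1.76% with at least 3 reads, 0.936% and 0.681% without the highest peaks, and 1.89% and 1.68% with the mitochondrial chromosome and Rn18s-rs5 left out of the library. The miR-1a-3p share was 11.7% and 12.7% with entries of at least 3 reads, 4.56% and 4.76% without the highest peaks, 3.88% and 3.68% counted as entries, 13.6% in each with miR-206-3p added, and 2.95% and 2.89% without Ldha. The miR-133 share was 50.7% and 51.1% with entries of at least 1 read, 55.4% and 55.6% with at least 3 reads, 45.1% and 36.4% without the highest peaks, 11.0% and 10.6% counted as entries, and 39.5% in each for miR-133a-3p alone. The share of control entries overlapped in MOV mimic was 37.1% with reciprocal overlap of 50%, 47.5% from the side of the mimic, 92.0% with any miRNA accepted, 62.6% with at least 1 read in both and 76.7% with at least 3 reads. The number of genes past 1.5-fold for all miRNAs, 1, was 0 at 2-fold and 0 without division by library totals. For miR-1a-3p it was 2, 1 at 2-fold and 3 without that division. Beyond each alternative's own construction, the cause of these moves was not tested. Most entries hold under 1 read, and the part of depth in this was not tested.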
